A study of Mus musculus with 4 samples.

Results

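Interleukins are cytokines, small secreted proteins through which leukocytes, epithelial cells and stromal cells signal to each other, and this section describes the mouse interleukin genes and their receptor genes outside the IL-1 and IL-6 groups in colon tissue. The members are the genes whose array symbol, updated to the current name, begins with Il and a number, except Il1a, Il1b, Il1rn, Il1r1, Il1r2, Il1rap, Il18, Il6, Il6st and Il11. Only these named genes are left out, so relatives of IL-1 and IL-6 genes such as Il1f6, Il1rl2, Il18r1 and Il6ra are members. There were 68 such genes among 16637 named genes. They comprised 33 ligand genes, 33 receptor genes and 2 others, Il18bp (a secreted binding protein) and Il4i1 (a secreted amino acid oxidase). The rule used names only, no measured value.

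Colon RNA of female mice was hybridised to 1-colour Cy3 arrays, with 24 mice in 4 groups of 6 and 1 array per group. The first group received 250 mg/kg TNBS (trinitrobenzene sulfonic acid, a hapten that provokes colitis when given with ethanol) mixed with ginger extract, the second the same TNBS dose mixed with zingerone (a phenolic ketone of ginger), the third TNBS alone, and the mock group only the vehicle, 0.1 ml with 50% ethanol, which all groups had. Tissue was taken on day 7. The labels spell the strain BALC/c for the 3 TNBS groups and BALB/c for mock, name no genetic change, and do not say whether an array held 1 mouse or a pool, nor how much ginger extract or zingerone was given. Since each group is 1 array, the differences below carry neither error nor p-value, and their precision is limited by that number. A gene is called measured if it reached the median intensity of the named probes (270.25 on TNBS with ginger, 272.25 on TNBS with zingerone, 269 on TNBS and 270.5 on mock) on at least 1 array, and 2 arrays are called apart at a 2-fold difference. The tissue label was checked against 7 epithelial markers, all of which were measured, and Epcam, an epithelial adhesion molecule, read between 16460 and 23980.

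Interleukin ligands bind receptors built from several chains, and many chains are shared between ligands. Most of the receptors signal through Janus kinases (JAK) and STAT transcription factors, whereas the IL-17 receptors use the adaptor Act1, encoded by Traf3ip2, and the IL-33 and IL-36 receptors use the adaptor MyD88. In the gut, IL-33 and IL-25 are known as epithelial or stromal alarm signals to innate lymphoid cells, IL-22 and IL-17 act on the epithelium, and IL-10 restrains inflammation. Many interleukins are made by few cells and act at low transcript levels.

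The array read most of these genes dimly. Of 33 ligands, 15 (45.5%) reached the named-probe median on at least 1 array, as did 16 of 33 receptors (48.5%), against 60.4% of all named genes. On all 4 arrays the median was reached by 9 ligands (27.3%) and 9 receptors (27.3%), against 45.2% of all named genes. By array, 14 ligands reached it with ginger, 10 with zingerone, 13 with TNBS alone and 12 on mock. For receptors these counts were 13, 13, 10 and 14. Every one of these shares lay below that of all named genes on the same array, 52.7% to 52.9%, and a share describes probe brightness, which also depends on the probe. The other 35 members stayed under the median on all 4 arrays. Il1f6, Il1f8, Il18r1, Il6ra and Il22ra1 reached it on exactly 1 array and so count as measured through the array where they were brightest.

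**Figure D1:**
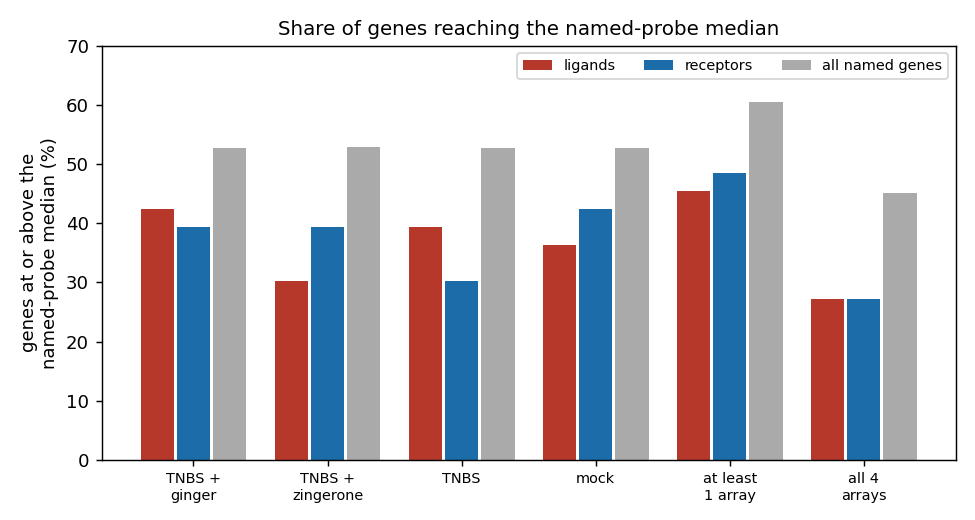
Percent of 33 ligand genes (red), 33 receptor genes (blue) and 16637 named genes (grey) at or above the named-probe median, on each array, on at least 1 array and on all 4 arrays. The ligand and receptor bars lie below the grey bar in every position, with 27.3% of each class against 45.2% of named genes on all 4 arrays.

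Upstream sequence is shown for the ligand Il33 and for 3 receptor chains, Il22ra1, Il17re and Il3ra, because these are the members at least 2-fold apart between some pair of arrays for which the RefSeq promoter table (build GRCm38.p6) holds an entry. That table matched 51 of the 68 members. Each line gives the 250 bases before an annotated start, 5′ to 3′ on the gene's plus strand, and capitals mark a match to a searched motif. The 2 Il33 windows at chr19:29924863-29925112 and chr19:29945540-29945789 belong to alternative starts. The others are Il22ra1 at chr4:135727909-135728158, Il17re at chr6:113458521-113458770 and Il3ra at chr14:14346245-14346494.
Il33 first start: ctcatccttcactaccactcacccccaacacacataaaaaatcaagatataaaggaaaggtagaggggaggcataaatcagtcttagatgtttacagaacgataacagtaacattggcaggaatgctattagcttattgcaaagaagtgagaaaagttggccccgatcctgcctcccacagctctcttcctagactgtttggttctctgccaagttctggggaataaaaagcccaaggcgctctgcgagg
Il33 second start: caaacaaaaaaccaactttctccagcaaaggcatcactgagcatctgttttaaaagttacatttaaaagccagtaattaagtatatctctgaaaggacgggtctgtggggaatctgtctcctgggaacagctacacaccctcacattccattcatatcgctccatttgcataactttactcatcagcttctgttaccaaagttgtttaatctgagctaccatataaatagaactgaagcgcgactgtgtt
Il22ra1: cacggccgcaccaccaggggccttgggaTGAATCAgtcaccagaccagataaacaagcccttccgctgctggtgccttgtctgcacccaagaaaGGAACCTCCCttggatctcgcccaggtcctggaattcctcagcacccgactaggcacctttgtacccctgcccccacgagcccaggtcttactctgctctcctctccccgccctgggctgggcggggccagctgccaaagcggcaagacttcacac
Il17re: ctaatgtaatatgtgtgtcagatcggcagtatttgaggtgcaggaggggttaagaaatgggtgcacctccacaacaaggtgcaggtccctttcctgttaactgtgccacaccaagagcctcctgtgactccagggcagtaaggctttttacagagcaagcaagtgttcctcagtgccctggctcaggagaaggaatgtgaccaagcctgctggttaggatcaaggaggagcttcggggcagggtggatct
Il3ra: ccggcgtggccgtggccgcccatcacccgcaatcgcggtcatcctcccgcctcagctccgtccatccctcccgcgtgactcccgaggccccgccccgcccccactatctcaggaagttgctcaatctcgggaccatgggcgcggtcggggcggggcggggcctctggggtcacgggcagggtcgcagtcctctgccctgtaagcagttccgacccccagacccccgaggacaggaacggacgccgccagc

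The motifs searched on both strands were the STAT motif TTCNNNGAA, the AP-1 motif TGANTCA and the NF-κB consensus. Il22ra1 held 1 AP-1 match, nearer the left end of the line, and 1 NF-κB match, and the 2 did not overlap. No letters of the other 4 windows matched. Of 32851 windows of this length in the table, 7.02% held the STAT motif, 6.75% the AP-1 motif and 7.25% the NF-κB consensus. The 51 members have 68 windows, counting each annotated start, and these shares were there 11.8%, 14.7% and 5.88%, that is 8, 10 and 4 windows. A match is a match of letters and was not measured as a binding site.

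Between TNBS and mock the measured members 2-fold apart were all ligands. Il24, Il33 and Il1f6 were at least 2-fold higher on TNBS, 3 of the 33 measured members, and no measured member was 2-fold lower. Over all 10056 measured genes 5.08% were 2-fold higher and 4.52% lower. Il1f6 counts as measured through TNBS alone and Il24 lay under the median on mock. Of the 19 members at or above the median on all 4 arrays, Il33 was the 1 that was 2-fold higher and 0 were lower, against 4.96% and 4.67% of all such genes, a share near the background. The median log2 difference was 0.01 for the 15 measured ligands and -0.09 for the 16 measured receptors, against -0.04 for all measured genes. The receptor median turned to 0.24 over the 9 receptors at or above the median on all 4 arrays. Left out there are Il17re, Il21r and Il3ra, which lay under the median on TNBS alone. They were lower on TNBS than on mock by -0.92, -0.58 and -0.39. Il18r1, higher by 0.34, and receptors with smaller differences are left out too. This median thus depends on a selection by the array compared. The receptor median was also 0.24 with the filter at the 75th percentile, where the ligand median was 0.83. That filter keeps 15.2% of ligands and 21.2% of receptors, and its ligand medians, here and below, are the values of Il16. The ligands Il16 and Il24 and the receptors Il13ra1 and Il17ra pass it only through the TNBS array, where they are high. Of the 33 members 26 lay within 0.5 on the log2 scale, as did 7084 of the 10056 measured genes. In bulk tissue, fewer cells of a type and less RNA per cell cannot be told apart. With no filter on dim genes, 4 of all 68 members were 2-fold higher and 0 lower, against 3.1% and 2.74% of all named genes.

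Il33 encodes IL-33, a nuclear cytokine of epithelial, endothelial and stromal cells that is set free on damage and acts through the receptor ST2. Its intensity was 1068.25 with ginger, 955 with zingerone, 2095 with TNBS alone and 404 on mock. All 3 TNBS arrays were above mock, with TNBS alone the highest. The TNBS array was 5.19-fold above mock, the 109th largest increase of 10056 genes. With ginger Il33 was 1.96-fold below TNBS alone and with zingerone 2.19-fold below, so the ginger value missed the 2-fold limit and the zingerone value passed it. Both stayed above mock, by 2.64-fold and 2.36-fold.

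Il24 encodes a cytokine of the IL-20 subfamily that signals to epithelial cells. It read 283.5 with ginger, 276 with zingerone, 568 with TNBS alone and 91.2 on mock. Its order over the arrays was that of Il33, except that the mock value lay under the 5th percentile of its array (122), near the dim end of the scale. The log2 difference between TNBS and mock was 2.64 on the deposited values, which rests on that dim reading, and 1.78 with values under the 25th percentile raised to it. Ginger was lower than TNBS alone by -1.003 and zingerone by -1.04 on the log2 scale, so the ginger call rests on a value that just reaches the limit.

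Il1f6 and Il1f9 encode the IL-36 cytokines IL-36α and IL-36γ, epithelial relatives of IL-1. Il1f6 read 155 with ginger, 169 with zingerone, 298 with TNBS alone and 137.5 on mock. Only the TNBS array reached the named-probe median, so this gene counts as measured through the array where it was high. It was 2.17-fold higher on TNBS than on mock, and by 0.85 on the log2 scale, under the limit, with the floor at the 25th percentile. Ginger and zingerone were lower than TNBS by -0.94 and -0.82 on the log2 scale. Il1f9 had the same order, with 154 on ginger, 186 on zingerone, 268 on TNBS and 103 on mock. Its TNBS value lay just under the median, so it is not among the measured genes, and its mock value lay under the 5th percentile of the array, so no exact fold is given.

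The other IL-36 family genes did not show this pattern. Il1f8, which encodes IL-36β, read 283.5 with ginger, 236 with zingerone, 246 with TNBS and 259.5 on mock. Il1f5, which encodes the IL-36 receptor antagonist, read between 201 and 227, and Il1f10, another IL-1 family member, between 157.5 and 183. The receptor chain Il1rl2, through which IL-36 acts, read 252 with ginger, 231 with zingerone, 224 with TNBS and 266 on mock, and its 2 probes both had their lower values on the 2 arrays with zingerone and TNBS alone. None of these came near 2-fold.

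Il16, which encodes a chemoattractant for CD4+ cells, was the next ligand by size of the difference between TNBS and mock. It read 346 with ginger, 319.6 with zingerone, 569 with TNBS alone and 321 on mock. The TNBS array stood apart from the other 3, which lay close together. TNBS was higher than mock by 0.83, and ginger and zingerone were lower than TNBS by -0.72 and -0.83 on the log2 scale, none of which reaches 2-fold. The 2-fold limit was passed by TNBS over mock (1.17) and by zingerone under TNBS (-1.17) after subtraction of the 5th percentile.

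**Figure D2:**
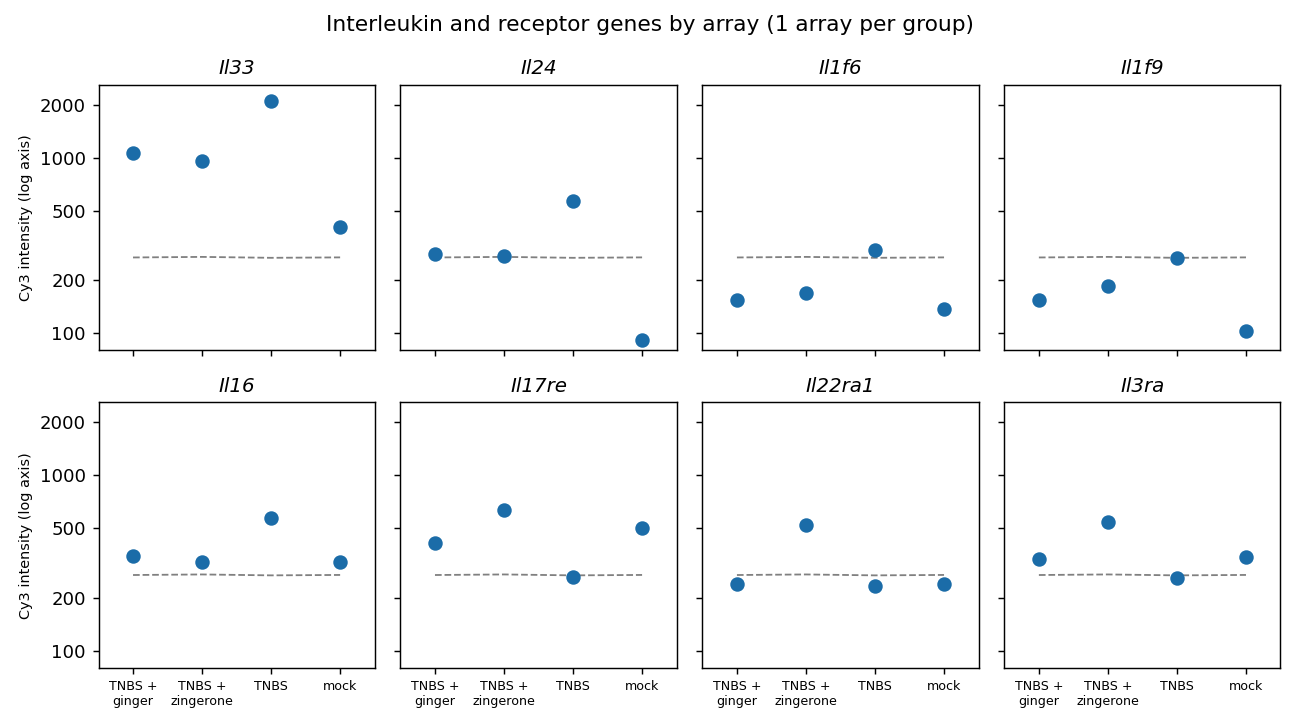
Cy3 intensity (log axis) of 8 member genes on the 4 arrays, 1 point per array, with the named-probe median of each array as a dashed line. Il33, Il24, Il1f6, Il1f9 and Il16 are highest on TNBS alone (2095 for Il33), and Il17re, Il22ra1 and Il3ra are highest with zingerone (633, 524 and 542.5).

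Ligands known for T helper responses were dim or level. IL-23 and IL-12 share the chain encoded by Il12b, which stayed under the median with 175 on ginger, 199 on zingerone, 210 on TNBS and 173 on mock. Il23a, the other chain of IL-23, read 439 with ginger, 367 with zingerone, 413 with TNBS and 378 on mock. Il12a, the other chain of IL-12, has 2 probes that differ in sign between TNBS and mock, by 0.69 and -0.23 on the log2 scale, and gives no direction. Il27, whose product activates and restrains T cells, read 656 with ginger, 549 with zingerone, 608 with TNBS and 619 on mock. No pair of arrays was 2-fold apart for any of them.

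The type 2 cytokine genes Il4, Il5, Il9 and Il13 showed no 2-fold difference either. Il5, the eosinophil growth factor, was measured, at 354 with ginger, 300.2 with zingerone, 309 with TNBS and 347 on mock. Il13, which acts on goblet cells, read 206 with ginger, 187 with zingerone, 197 with TNBS and 266.5 on mock and stayed just under the median. Il4 lay between 139.5 and 146.5 and Il9 between 181 and 252. Il25, an epithelial inducer of type 2 responses, read 338 with ginger, 427 with zingerone, 304 with TNBS and 301 on mock, highest with zingerone by 0.49 over TNBS on the log2 scale.

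Il10, Il22 and the lymphocyte growth factors Il2, Il7, Il15 and Il21 gave little signal or little difference. Il10, which encodes the anti-inflammatory cytokine IL-10, read 175 with ginger, 219 with zingerone, 179 with TNBS and 192.5 on mock. Il22, a cytokine of innate lymphoid and T cells that acts on epithelium, read 137 with ginger, 125 with zingerone, 146 with TNBS and 123 on mock, and its 2 probes gave the same order of TNBS over ginger over zingerone. Il15, which sustains NK cells and intraepithelial lymphocytes, was measured on all 4 arrays, at 457.5 with ginger, 392.5 with zingerone, 480.5 with TNBS and 396 on mock. Il20, a cytokine acting on epithelium, read 309 with ginger, 234 with zingerone, 257 with TNBS and 342.5 on mock, and Il3, a growth factor of basophils and mast cells, between 261 and 299. Il19 stayed under the median, between 211 and 247, as did Il31, between 145 and 153. Il7 read 197 with ginger, 213 with zingerone, 216 with TNBS and 259.8 on mock, and Il2 and Il21 stayed between 98.2 and 212. At this brightness a change in these transcripts may not be detectable.

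The IL-17 family was read as 6 ligands and 5 receptor chains. Il17a, the T cell cytokine that gives the family its name, stayed dim, with 121 on ginger, 110.5 on zingerone, 151 on TNBS and 129 on mock. Il17f, its close relative, read 364 with ginger, 527 with zingerone, 325 with TNBS and 383 on mock, and was higher by 0.70 on the log2 scale with zingerone than with TNBS alone. Il17c, an epithelial member, read 500 with ginger, 499.8 with zingerone, 632.5 with TNBS and 762 on mock. All 3 TNBS arrays lay below mock for Il17c, the 2 with a ginger product lowest, by -0.61 on the log2 scale each. Il17b and Il17d stayed under the median.

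Among the receptor chains of this family, Il17re had the largest differences. Its product pairs with IL-17RA to bind IL-17C on epithelial cells. It read 409 with ginger, 633 with zingerone, 263 with TNBS and 498 on mock, so TNBS alone was lowest and zingerone highest. TNBS was lower than mock by -0.92 on the log2 scale, under the limit. The zingerone array was 2.41-fold above TNBS, the 205th largest increase of 10056 genes, and ginger was 1.56-fold above TNBS. Il17rc, the partner chain for IL-17A and IL-17F, had the same order, at 323 with ginger, 394.5 with zingerone, 279 with TNBS and 348.5 on mock, with smaller differences.

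Il17ra, the chain common to the family, cannot be read from its mean. Its brighter probe read 679.8 with ginger, 570 with zingerone, 1266 with TNBS and 736.5 on mock. The dimmer one read 250.8 with ginger, 387 with zingerone, 268 with TNBS and 265 on mock. Against TNBS the zingerone difference was -1.15 for the first probe and 0.53 for the second on the log2 scale, so its direction depends on the probe. Il17rb, the IL-25 receptor chain, and Il17rd stayed under the median with at most 206 on any array.

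**Figure D3:**
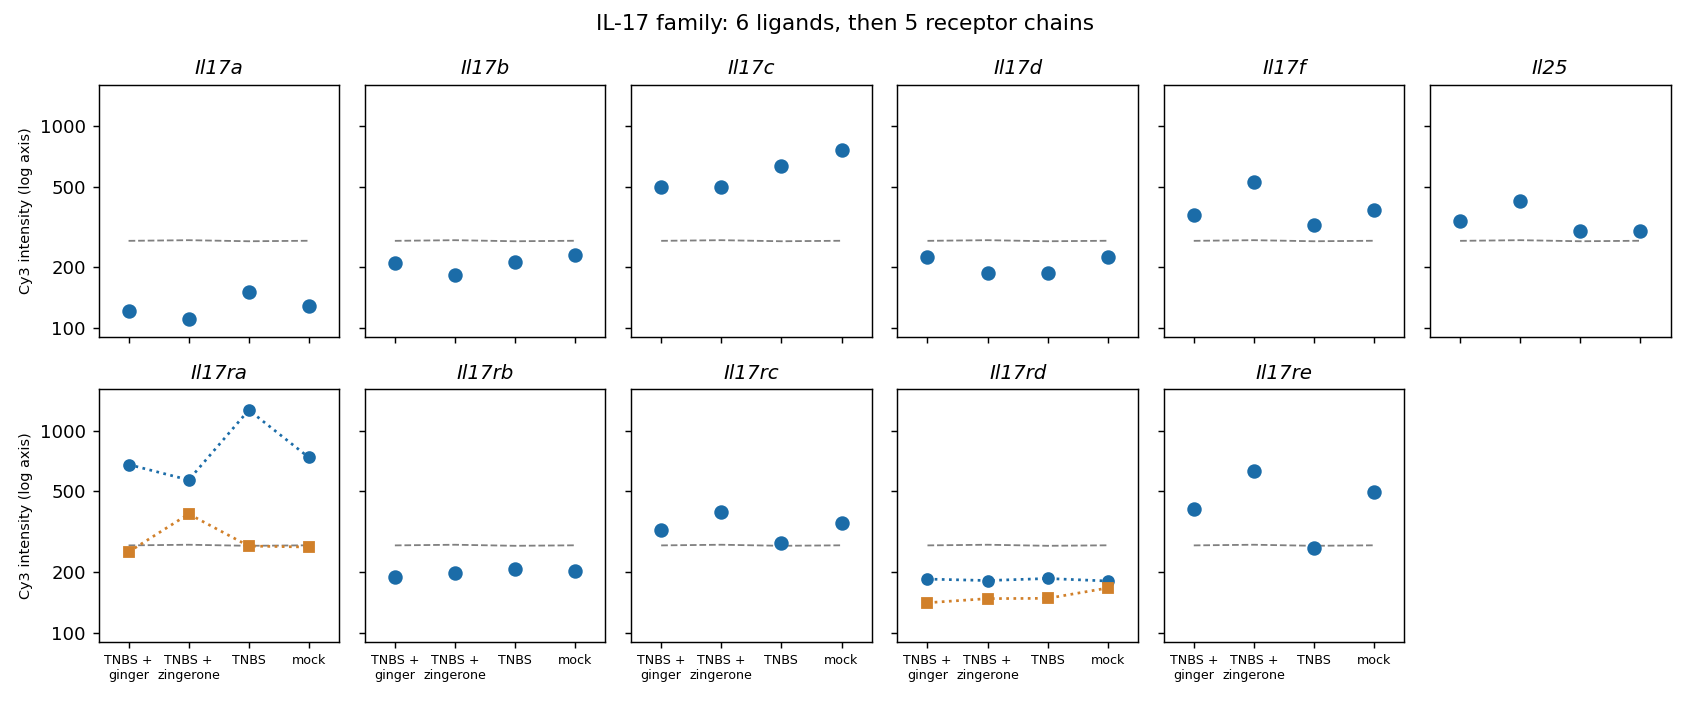
Cy3 intensity (log axis) of the 6 IL-17 family ligand genes (upper row) and 5 receptor chain genes (lower row) on the 4 arrays, with the named-probe median dashed. Il17ra and Il17rd are drawn as their 2 separate probes (circles and squares, joined by dotted lines to tell the probes apart), and the 2 Il17ra probes go opposite ways between zingerone and TNBS (570 against 1266, and 387 against 268).

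Set against TNBS alone, the array of TNBS with ginger was 2-fold apart for 3.03% of measured members, near the 3.83% of all measured genes. Of 33 measured members Il24 alone was 2-fold lower and none was 2-fold higher, against 2.48% lower and 1.35% higher over all measured genes. Of the 19 members at or above the median on all 4 arrays 0 were lower and 0 higher, against 2.25% and 1.3% of such genes. The medians were 0.01 for ligands and -0.01 for receptors, against 0.02 for all measured genes. With the filter at the 75th percentile they were -0.72, the value of Il16, and -0.27. The members kept then include those that pass through TNBS alone. Il33 and Il1f6 lay just short of the limit, as given above. This comparison and that of TNBS with mock share the TNBS array.

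The array of TNBS with zingerone differed from TNBS alone in both directions. Il33 and Il24 were 2-fold lower and the receptor genes Il17re, Il22ra1 and Il3ra 2-fold higher, 2 and 3 of 33 measured members, against 2.96% lower and 4.57% higher over all measured genes. Il22ra1 counts as measured through the zingerone array alone, and Il17re and Il3ra lay under the median on TNBS. Of the 19 members at or above the median on all 4 arrays, Il33 was the 1 that was lower and 0 were higher, against 2.85% and 4.19% of such genes. With the filter at the 75th percentile Il22ra1 and Il3ra were no longer among the measured genes. Il17re passes that filter only through the zingerone array, where it is high. The median was -0.17 for the 15 ligands, 13 of them below the TNBS value where 5178 of 10056 measured genes were, and -0.06 for the 16 receptors, against -0.02 for all measured genes. With the filter at the 75th percentile these medians were -0.83, the value of Il16, and -0.31. The members kept then include those that pass through TNBS alone. This comparison shares the TNBS array with the preceding ones.

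Il22ra1 encodes the epithelial receptor chain for IL-22, which also serves IL-20 and IL-24. It read 240 with ginger, 524 with zingerone, 233 with TNBS and 240 on mock. Zingerone stood apart from the other 3 arrays, which were within 0.05 of each other on the log2 scale. It reached the named-probe median on the zingerone array alone and counts as measured through it. It was 2.25-fold above TNBS and 2.18-fold above mock. Ginger was lower than zingerone by -1.13 on the log2 scale, the single member 2-fold apart between those 2 arrays, where 1.1% of measured genes were.

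The other chains of the IL-22 and IL-20 receptors did not follow it. Il10rb, which pairs with IL-22RA1 and with the IL-10 receptor, read 2042 with ginger, 1882 with zingerone, 2398 with TNBS and 2166 on mock, a spread of 0.35 on the log2 scale. Il22ra2, the secreted decoy receptor that neutralises IL-22, read 346 with ginger, 272 with zingerone, 274 with TNBS and 323 on mock. Il20ra stayed under the median, between 189.8 and 215, and Il10ra between 225 and 236.

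Il3ra and Il21r, like Il17re, were highest with zingerone and lowest with TNBS alone. Il3ra encodes the IL-3-binding chain found on myeloid progenitors, basophils and some dendritic and endothelial cells. It read 334.5 with ginger, 542.5 with zingerone, 261.5 with TNBS and 342.5 on mock, with zingerone 2.07-fold above TNBS. Il21r, a receptor of lymphocytes that uses the common gamma chain, read 365.5 with ginger, 451 with zingerone, 242 with TNBS and 361.5 on mock. Zingerone was 0.90 above TNBS on the log2 scale, which is under the limit. After subtraction of the 5th percentile Il21r passed it over TNBS with zingerone (1.46) and with ginger (1.02). For both genes the ginger value lay within 0.05 of mock on the log2 scale.

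Other receptor chains of the common gamma family, and the IL-4 and IL-13 receptor chains, were not 2-fold apart between any pair of arrays. Il2rg, the common gamma chain itself, read 990.1 with ginger, 894 with zingerone, 1192 with TNBS and 1008 on mock. Il2ra, the high-affinity IL-2 receptor chain of activated and regulatory T cells, read 670.5 with ginger, 553 with zingerone, 671.5 with TNBS and 775 on mock, and Il2rb stayed under the median. Il4ra, the shared chain for IL-4 and IL-13, read 719.8 with ginger, 913 with zingerone, 895 with TNBS and 752 on mock. Il13ra1, which pairs with it, read 444 with ginger, 450.0 with zingerone, 575.5 with TNBS and 437 on mock, and the decoy Il13ra2 stayed at or under 174.5. Il7r had 2 probes that differed in sign between TNBS and mock, by -0.06 and 0.60, and were both lower with zingerone than with TNBS, by -0.42 and -0.90. Their mean was lower by -0.66, and by -1.01 after subtraction of the 5th percentile, which passes the limit.

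Of the remaining receptor genes, Il18r1 reached the median on TNBS alone, with 232 on ginger, 229.8 on zingerone, 283 on TNBS and 224 on mock. Il6ra reached it on mock alone, at 252 with ginger, 248.5 with zingerone, 254 with TNBS and 292 on mock. Il31ra, a chain of the IL-31 receptor, read between 243 and 309. The others stayed under the median: Il12rb1, Il12rb2, Il15ra, Il18rap, Il23r, Il27ra, Il5ra, Il9r, Il1rapl1 and Il1rapl2. Their differences between any pair of arrays were at most 0.43 on the log2 scale, and Il12rb1, the chain shared by the IL-12 and IL-23 receptors, read 218.5 with ginger, 203.5 with zingerone, 256 with TNBS and 206.5 on mock.

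The binding protein and the enzyme differed from each other. Il18bp, which captures IL-18, read 290.2 with ginger, 462 with zingerone, 265 with TNBS and 393 on mock, again with TNBS lowest and zingerone highest, 0.80 above TNBS on the log2 scale. Il4i1 read 382 with ginger, 345 with zingerone, 428.5 with TNBS and 465 on mock. Neither was 2-fold apart between any pair of arrays on the deposited values. After subtraction of the 5th percentile Il18bp passed the limit, at 1.25 for zingerone minus TNBS and -1.02 for ginger minus zingerone.

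**Figure D4:**
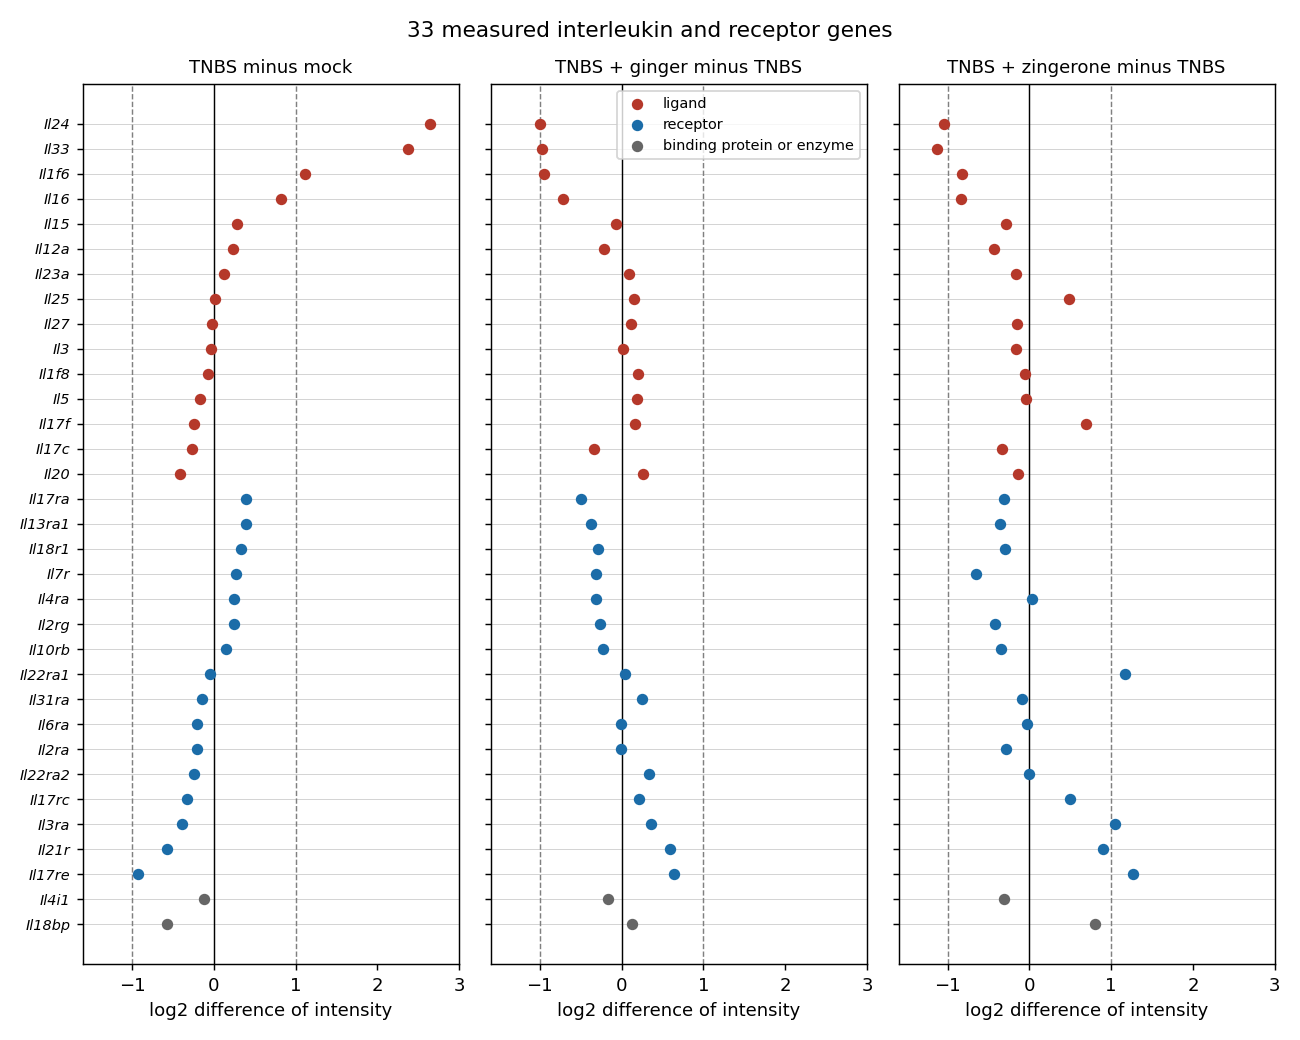
Log2 difference of intensity for the 33 measured members in 3 comparisons, with ligands in red, receptors in blue and Il18bp and Il4i1 in grey, ordered within each class by TNBS minus mock, and dashed lines at 2-fold. Il24 (2.64, or 1.78 with dim values raised to the 25th percentile) and Il33 (2.37) stand apart in the first panel, and Il17re (1.27), Il22ra1 (1.17) and Il3ra (1.05) lie past the line in the third.

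Against mock, Il33 and Il24 were the 2 members still 2-fold higher with ginger, 2 of 33 measured members against 2.7% of measured genes 2-fold apart either way. Zingerone against mock had these 2 and Il22ra1, 3 of 33 against 2.59%. Il24 stood at 1.64 above mock with ginger and 1.60 with zingerone on the log2 scale, and with the floor at the 25th percentile these were 0.78 and 0.74.

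Genes that carry interleukin signals inside the cell or share its chains were taken from lists chosen by function. Of 6 measured JAK and STAT genes none was 2-fold apart between TNBS and mock, ginger and TNBS, or zingerone and TNBS. Of 8 measured feedback genes Socs3, an inhibitor induced by STAT3, was the one 2-fold higher on TNBS, with 1967 on ginger, 2427 on zingerone, 7641 on TNBS and 1538 on mock, and it was the one 2-fold lower with ginger and with zingerone. Cish, an inhibitor induced by STAT5, read 713 with ginger, 614 with zingerone, 877 with TNBS and 496 on mock. Of 6 measured adaptors of IL-17 and IL-1 type receptors none was 2-fold apart in these comparisons, and Traf3ip2 read 1017 with ginger, 959 with zingerone, 784 with TNBS and 1169 on mock.

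Genes known to be induced by IL-22 or IL-17 in epithelium, and those known to be induced by IL-4 or IL-13 were listed as downstream readouts. Both lists were chosen with earlier results of these data known, so their counts can exceed the background for that reason alone. Whether these cytokines acted was not tested. Of 8 measured genes of the first list 6 were 2-fold higher on TNBS than on mock, where 5.08% of all measured genes were. Fut2 and Duoxa2, the rest of the 8, were lower on TNBS than on mock, by -0.44 and -0.59 on the log2 scale. Duoxa2 read 1048 with ginger, 917 with zingerone, 1395 with TNBS and 2095 on mock. It was thus at least 2-fold below mock with ginger and with zingerone. Of the 8 genes, 4 were 2-fold lower with ginger than with TNBS and 4 with zingerone. Against mock, 5 of the 8 were still 2-fold higher with ginger and 5 with zingerone. Of all measured genes 1.62% and 1.53% were. The list medians against mock were 2.71 and 1.62 on the log2 scale. Reg3g, an antimicrobial lectin, read 316 with ginger, 386 with zingerone, 1154 with TNBS and 214 on mock. Several genes of this list are also neutrophil genes, S100a8 and S100a9 among them. Of 8 measured genes of the second list 4 were 2-fold higher and 2 lower on TNBS. The macrophage genes Chil3 and Retnla were higher, at 3191 and 4878 on TNBS against 241 and 827 on mock, while the goblet cell genes Retnlb and Clca1 were lower, at 348 and 477 on TNBS against 998 and 1325 on mock. With ginger 3 of these 8 were 2-fold lower than with TNBS, and with zingerone 3 were lower and 1 higher. Over all measured genes 2.48% were 2-fold lower with ginger than with TNBS. With zingerone 2.96% were lower and 4.57% higher.

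Cell markers differed between the same arrays. Over all measured genes 5.08% were 2-fold higher and 4.52% lower on TNBS than on mock. Against TNBS, 1.35% were higher and 2.48% lower with ginger, and 4.57% and 2.96% with zingerone. All 5 measured neutrophil markers were 2-fold higher on TNBS than on mock, and 2 of 5 were 2-fold lower with ginger and with zingerone than with TNBS. Their summed intensity over 6 genes was 95782 with ginger, 74956 with zingerone, 146289 with TNBS and 4897 on mock. On the arrays with TNBS most of that sum was S100a8 and S100a9. Against TNBS these differed by -0.25 and -0.20 with ginger and -0.60 and -0.53 with zingerone on the log2 scale. The 2 lower markers were Mmp8 (-3.52 with ginger, -3.70 with zingerone) and Retnlg (-2.51 and -3.13). Monocyte and macrophage markers had 2 of 6 higher on TNBS than on mock, with a sum of 6369 with ginger, 6294 with zingerone, 30591 with TNBS and 3417 on mock. Most of that sum was Cd14, at 28071 on TNBS and 1322 on mock. Adgre1, Itgam and Lyz2 were lower on TNBS than on mock by -0.38, -0.15 and -0.24, and the median of the list was 0.15 on the log2 scale. T and NK cell markers had 0 of 4 measured genes 2-fold apart in either direction, with sums between 2374 and 3053. B and plasma cell markers had 3 of 4 lower on TNBS than on mock, with a sum of 5261 with ginger, 5926 with zingerone, 3599 with TNBS and 7791 on mock. Thy1, a marker of T and innate lymphoid cells, was 1.25 higher on TNBS than on mock on the log2 scale. It was the only measured gene of its list, where Gata3 and Tbx21 stayed under the median. The median of the 4 measured T and NK cell markers was -0.40 in the same comparison. Epx, the eosinophil peroxidase gene, read 474 with ginger, 139.5 with zingerone, 162.5 with TNBS and 157.5 on mock. Prg2, the other measured eosinophil marker, read 271.5 with ginger, 206 with zingerone, 249.8 with TNBS and 258 on mock, so the ginger minus TNBS difference was 0.12 for it and 1.54 for Epx. Between zingerone and TNBS, 2 of 7 epithelial markers were 2-fold higher, Car1 and Slc26a3. Slc26a3 was also 2-fold higher with ginger than with TNBS, by 1.45 on the log2 scale, and Car1 was higher by 0.89. The summed epithelial intensity was 95740 with ginger, 107802 with zingerone, 88376 with TNBS and 83264 on mock. The order of TNBS over mock in that sum came from Krt8 and Krt20. The other 5 epithelial markers were lower on TNBS than on mock, with Slc26a3 at -2.51 and Vil1 at -0.84, and the median of the 7 was -0.50 on the log2 scale. Between zingerone and TNBS, 2 of 4 measured B and plasma cell markers were 2-fold higher with zingerone. No marker is listed at 0 on any array. The part of these cell types in the ligand and receptor differences was not tested.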

How the data were processed

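Each of the 4 groups gave 1 array. The values are Cy3 intensity readings as the authors deposited them, linear and 1 for every probe of an array. Per the submitters' processing notes limma was named, without a version or role. How background and scaling were treated is not stated in the sources used here. Sorted values of the arrays differ by 1.84% or less and none is under 74.2, so folds of dim probes may be understated and a level is mainly a rank.

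Of 29922 probes, 21020 carry 1 gene symbol in the platform annotation. Synonyms in the RefSeq gene table (GRCm38.p6) changed 3410 of these to a newer symbol, through which Il34 joined the members. Differences are log2 ratios without a pseudocount, and probes of a gene were averaged on that scale. Of the members, 60 have 1 probe and 8 have 2. Levels were set against the named-probe median of the array and summed over marker lists, where bright probes weigh most; the levels of single genes were not ranked against each other. The calculations (Python 3.11.15, pandas 2.3.3, numpy 2.4.6) were tested on simulated data.

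Members and lists were chosen with earlier results of these data known. The text names every measured member 2-fold apart in any of 6 comparisons and a set list of further members. The rest, and the genes of the lists, were named after their values were seen. Il1rl1, Il11ra1 and Il20rb, which the array names do not include, were not analysed here. Alternatives were quantile normalization, equal array medians, no filter on dim genes, a stricter one (75th percentile), a floor (25th percentile), the brightest probe of a gene, subtraction of the 5th percentile with a minimum of 50, and removal of probes 4-fold apart on 1 array.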

Additional observations from a re-analysis of the deposited data

How the results depend on the processing

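No paired analysis was possible because each group has 1 array. The results here are the counts of members 2-fold apart, the class medians and the shares at or above the median. All 17 kept their values within the limits set (a count within 1.5 times, a median within 0.1 log2, a share within its exact 95% interval) under quantile normalization, equal medians, the brightest probe and removal of probes standing apart, and so did the 15 that could be given with no filter. Quantile normalization and equal medians could change little, since the sorted values of the arrays already differ by 1.84% or less. Removal of probes standing apart took away 0 member probes. The members called on the deposited values have 1 probe each, so the brightest probe could not change their differences. Agreement under these settings is therefore no sign of robustness. Among single members no called difference changed sign under any setting. With the floor at the 25th percentile 1 member in place of 2 was 2-fold apart between ginger and mock, since the dim mock value of Il24 was raised, and the share of members is not defined there. With the filter at the 75th percentile, which keeps fewer genes, shares were 15.2% of ligands and 21.2% of receptors. Each ligand median under this filter is the value of Il16, which passes it through TNBS alone. Medians for ligands and receptors were then 0.83 and 0.24 (TNBS minus mock), -0.72 and -0.27 (ginger minus TNBS), and -0.83 and -0.31 (zingerone minus TNBS). With zingerone 1 member, Il17re, was 2-fold higher than with TNBS, and it passes this filter through the zingerone array alone. Between ginger and zingerone 0 were 2-fold apart. With the 5th percentile subtracted, which widens folds of dim probes, 1 member (Il17re) was 2-fold lower on TNBS than on mock. Ginger against TNBS then had 2 higher and 3 lower, zingerone against TNBS 6 higher and 5 lower with a ligand median of -0.28, and ginger and zingerone were 2-fold apart for 2 members. Over all genes this setting called 855 higher and 841 lower on TNBS than on mock, where the deposited values gave 511 and 455. It gave 326 higher and 416 lower for ginger against TNBS, where these were 136 and 249, and 963 and 534 for zingerone, where these were 460 and 298. Ginger against zingerone gave 63 and 314, where these were 36 and 75. Dim probes and single arrays limit every value here.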

Other observations

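Symbols that begin with Il in the platform annotation but have since been renamed left the members. Cxcr1 and Cxcr2, annotated as Il8ra and Il8rb, are receptors for neutrophil chemokines. Cxcr2, the mean of 2 probes, read 257 with ginger, 318 with zingerone, 489 with TNBS and 217 on mock, 1.17 higher on TNBS than on mock on the log2 scale. Cxcr1 read 436 with ginger, 373 with zingerone, 349 with TNBS and 379 on mock and showed no such peak. Ifnlr1, annotated as Il28ra, is the interferon lambda receptor of epithelium and read 248 with ginger, 240.4 with zingerone, 277 with TNBS and 247 on mock.

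Cytokines and receptor chains that work with the interleukins but carry other names had 2 of 4 measured genes 2-fold higher on TNBS than on mock. Of all measured genes 5.08% were. Csf1, the macrophage growth factor that shares its receptor with IL-34, read 682 with ginger, 611 with zingerone, 1848 with TNBS and 434 on mock. Csf2ra, the GM-CSF receptor chain, read 421 with ginger, 488 with zingerone, 936 with TNBS and 356 on mock. With ginger both were 2-fold lower than with TNBS, and with zingerone Csf1 was, while Csf2ra was lower by -0.94 on the log2 scale. Of all measured genes 2.48% were 2-fold lower with ginger and 2.96% with zingerone. Il34 itself stayed under the named-probe median, between 176 and 207.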
